A study of Mus musculus with 30 samples.

Results

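The genes described here are 10 that belong to the antioxidant response governed by NRF2. They were chosen by symbol from the 38561 genes of a count table: Nfe2l2, Keap1, Nqo1, Gclc, Gclm, Txnrd1, Srxn1, Gsr, Prdx1 and Sod2. Their RNA was measured by sequencing in cultured adipose-derived stem cells, the fibroblast-like progenitors of fat. The cells came from inguinal fat of male C57BL6/J mice of a colony kept for diet-induced obesity, with 1 library per mouse. Lean mice received control chow, and obese mice received a lard-based diet with 60% of its energy as fat from weaning on. Young mice were killed at 20 weeks and aged mice at 52 weeks, with 8 libraries of each group but the aged obese one, which has 6. Cells of all groups had been sorted as Sca-1+, CD34+, CD31-, CD45- and Ter119-, grown to passage 2 and frozen per mouse, so every value describes cells after culture. Of 12 aged obese mice bought, 8 were alive at 360 days, so the aged obese group holds survivors. Aged obese mice had also been fed the fat-rich diet for longer, and these effects cannot be told apart.

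NRF2, the product of Nfe2l2, is a transcription factor that KEAP1 holds in the cytoplasm and delivers to the proteasome. Electrophiles and oxidants modify cysteines of KEAP1, upon which NRF2 accumulates and binds antioxidant response elements beside genes for glutathione synthesis, thioredoxin recycling and quinone reduction. Control of NRF2 therefore acts largely on the protein, and the level of the Nfe2l2 transcript is not a measure of its activity. SOD2, the superoxide dismutase of mitochondria, is often grouped with these genes although NF-kB is its better known regulator.

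Promoter entries in RefSeq (GRCm38.p6) were found for 8 of the 10 genes, as 10 entries since Txnrd1 has 3. The core of the antioxidant response element, TGACNNNGC, was searched on both strands of the 250 bases before each annotated start. It was found for 4 of the 8 genes, in 4 of the 10 entries, and in 10.2% of 32851 promoters of the same length. The match began 240 bases before the start of Nfe2l2, 134 before Gclm, 133 before Prdx1 and 92 before the start of 1 of the 3 Txnrd1 entries. In Srxn1 a match lay 28 bases after the start, outside the stretch printed. A match of these letters is a description and not a bound site. The stretches from 250 to 61 bases before the start are printed for the 4 genes with a match, with the match in capitals, and for Srxn1, the gene with the widest range of levels. In GENCODE M21, 144 of the 250 bases before the start of Nfe2l2 lie in an exon of E030042O20Rik on the other strand, as do 52 of those before the Txnrd1 start in an exon of Gm38560. Each stretch is written 5′ to 3′ on the strand of the gene:
Nfe2l2, chr2:75704724-75704913, - strand: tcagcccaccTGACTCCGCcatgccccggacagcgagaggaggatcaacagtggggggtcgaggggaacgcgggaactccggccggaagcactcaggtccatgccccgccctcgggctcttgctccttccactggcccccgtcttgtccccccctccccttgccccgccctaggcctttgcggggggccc
Gclm, chr3:122245307-122245496, + strand: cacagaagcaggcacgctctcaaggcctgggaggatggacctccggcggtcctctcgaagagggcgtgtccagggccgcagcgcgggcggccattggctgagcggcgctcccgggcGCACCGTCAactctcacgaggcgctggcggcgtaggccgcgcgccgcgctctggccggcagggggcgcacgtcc
Txnrd1, chr10:82858956-82859145, + strand: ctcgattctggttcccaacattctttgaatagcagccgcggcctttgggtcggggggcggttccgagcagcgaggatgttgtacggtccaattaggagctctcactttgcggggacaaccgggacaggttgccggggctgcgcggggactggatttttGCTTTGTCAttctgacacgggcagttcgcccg
Prdx1, chr4:116685349-116685538, + strand: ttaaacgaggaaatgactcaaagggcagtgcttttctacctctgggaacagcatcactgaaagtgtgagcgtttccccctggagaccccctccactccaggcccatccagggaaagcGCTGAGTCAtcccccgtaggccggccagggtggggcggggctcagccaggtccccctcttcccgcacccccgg
Srxn1, chr2:152105274-152105463, + strand: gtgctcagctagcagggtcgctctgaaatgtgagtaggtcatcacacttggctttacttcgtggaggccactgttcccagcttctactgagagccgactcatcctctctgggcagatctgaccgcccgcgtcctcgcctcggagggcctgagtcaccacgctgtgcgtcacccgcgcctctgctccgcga

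Between 30597765 (young lean 26) and 47970233 (aged obese 16) reads per library were counted in genes, and each of the 10 genes passed the filter on low counts. Libraries of a group were unequally alike: a chi-square statistic per gene ran from 6.79 between young obese 19 and 21 to 516 between aged obese 10 and 17, and tests treat them as independent. Of 9 markers of adipose progenitors, Col1a1 (12150 to 44930 CPM, counts scaled to a common library size), Thy1, Pdgfrb, Ly6a and Pdgfra were at 107.6 CPM or more in every library. Ly6a encodes Sca-1. Cd34, whose product was also sorted for, was at 0.19 to 37.95 CPM, and Dcn, Pi16 and Dpp4 were likewise below 1 CPM in some libraries. Markers of leukocytes summed to at most 36.9 CPM, mostly from Csf1r, while Ptprc and Adgre1 were at or near 0. The highest sums were 20.7 CPM for endothelial, 28.2 for adipocyte and 0.336 for erythroid markers. Mural markers reached 349.6 CPM, with a median of 280.2 CPM in aged obese libraries. Levels are CPM after scaling of the libraries, and differences are log2 fold changes with their standard error (SE) from a model of all genes.

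Some libraries stood apart in these genes, namely aged lean 16, aged obese 15 and aged obese 17. They held 829.5, 987.6 and 872.8 CPM of Srxn1, against 40.6 to 144 CPM in the other 27 libraries. They also had the highest Txnrd1 (715, 639 and 597 CPM, against at most 383 CPM elsewhere) and the highest Gclc (91.6, 108 and 105 CPM, against at most 46.0 CPM). Keap1 was lowest in the same libraries, with 22.5, 25.95 and 19.7 CPM, against 28.5 to 43.3 CPM elsewhere. Nqo1, the classical NRF2 target, was at 34.0, 24.6 and 26.5 CPM in them. The values of aged obese 15 and 17 were the highest of their group, whose other 4 libraries had 15.9 to 17.7 CPM, and that of aged lean 16 was above its group median of 29.1 CPM, but 3 of the other aged lean libraries were higher. Summed mural markers were 80.6 CPM in aged lean 16, 264 CPM in aged obese 15 and 87.0 CPM in aged obese 17, and their part in the results was not tested. In RNA of whole cultures, fewer cells that express a gene and less RNA per cell cannot be told apart. Results of the tests that rest on these libraries are given with and without them.

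**Figure D1:**
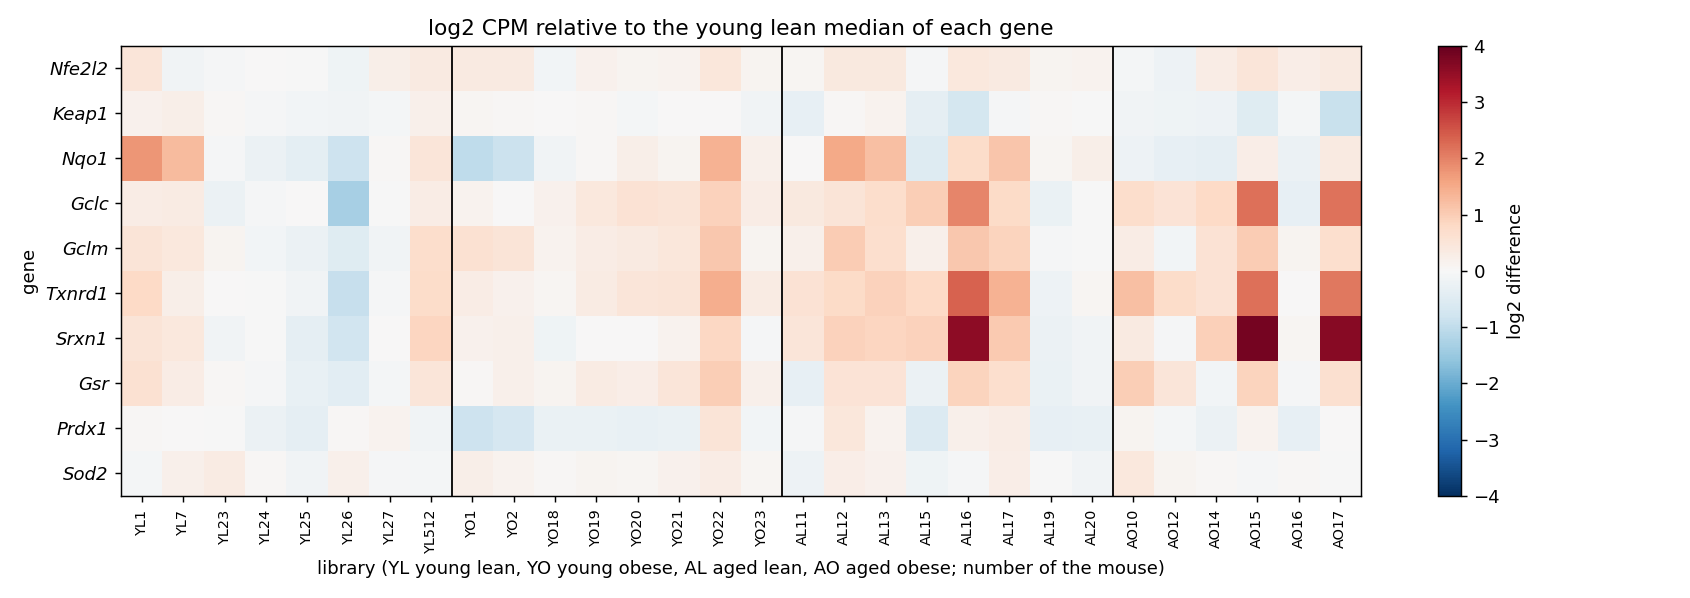
Each cell gives the log2 CPM of a gene (rows) in a library (columns) minus the median of that gene over the 8 young lean libraries, in red where higher and in blue where lower. Aged lean 16, aged obese 15 and aged obese 17 are the darkest columns for Gclc, Txnrd1 and Srxn1 and are among the bluest for Keap1.

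Per kilobase of merged exons, mean levels over the 30 libraries ranked Prdx1 (158 CPM per kb) first, then Srxn1 (59.7), Txnrd1 (34.3), Nfe2l2 (27.97), Nqo1 (17.2), Gsr (11.1), Gclc (9.74), Gclm (8.75), Keap1 (7.38) and Sod2 (3.55). The place of Srxn1 owes much to the libraries named above, since its group medians were 24.7 to 45.8 CPM per kb. Between neighbours in this order the ranges of the group medians overlapped, except that Prdx1 lay above Srxn1, Nfe2l2 above Nqo1 and Keap1 above Sod2 in every group. The genes also differed in how widely they varied between mice. The highest library exceeded the lowest 24.3-fold for Srxn1, 11.6-fold for Gclc, 9.65-fold for Txnrd1 and 6.90-fold for Nqo1. The ratio was 2.96 for Gclm, 2.68 for Gsr, 2.56 for Prdx1, 2.20 for Keap1, 1.58 for Nfe2l2 and 1.53 for Sod2. The enzymes of glutathione synthesis and peroxiredoxin repair thus had wider ranges than the regulator Nfe2l2.

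**Figure D2:**
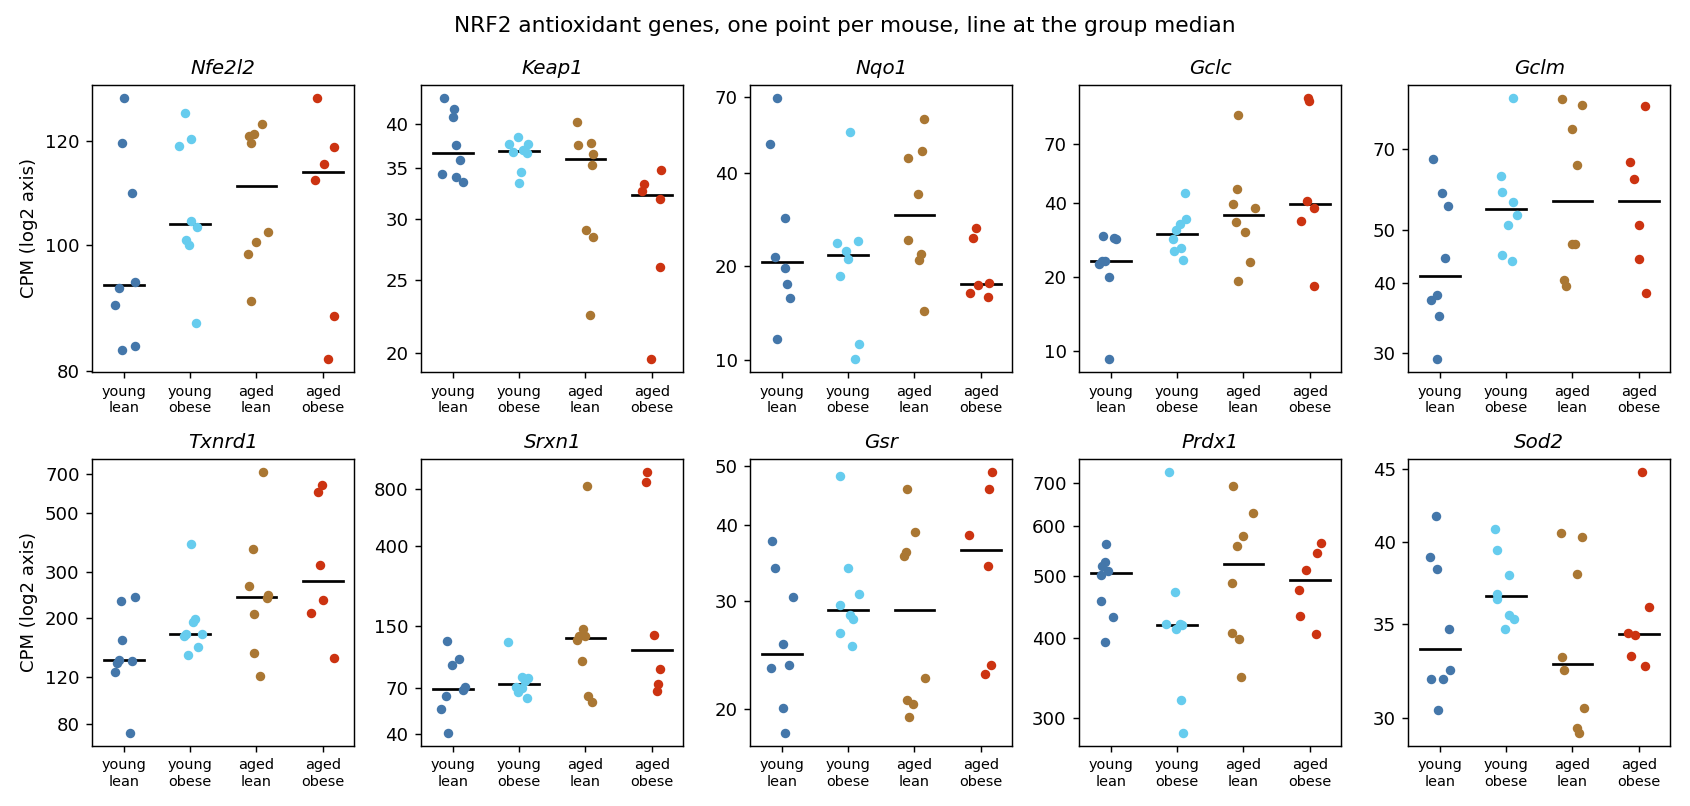
CPM of each gene by group on a log2 axis, with 1 point per mouse and a line at the group median. The ranges of the 4 groups overlap for each of the 10 genes, and the 3 highest points of Srxn1 lie at 829.5 to 987.6 CPM.

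Nfe2l2 (ENSMUSG00000015839), which encodes NRF2 itself, had a median of 93.2 CPM in young lean (range 83.1 to 130), 104 in young obese (range 87.1 to 126), 111 in aged lean (range 90.5 to 124) and 114 in aged obese libraries (range 81.7 to 129). The groups overlapped almost completely. Its log2 difference was between -0.03 ± 0.11 (obesity in aged mice) and 0.13 ± 0.11 (age in lean mice) in the 5 comparisons of groups, and the smallest adjusted p was 0.5497. Keap1 (ENSMUSG00000003308), whose product is the cysteine sensor that directs NRF2 to degradation, was at 33.6 to 43.3 CPM in young lean libraries, with a median of 36.7. The median was 36.9 CPM in young obese (range 33.4 to 38.5), 35.9 in aged lean (range 22.5 to 40.2) and 32.3 in aged obese libraries (range 19.7 to 34.8). In 5 of 6 aged obese mice it lay below every young lean mouse, and in 3 of 4 without aged obese 15 and 17. The antisense gene Gm16754 overlaps Keap1. Reads from the shared stretch may have been counted for Keap1 or set aside as ambiguous, since the strand setting of the counting is not given in the sources used here.

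The subunits of glutamate-cysteine ligase, the enzyme that limits the rate of glutathione synthesis, moved unequally. Gclc (ENSMUSG00000032350), the catalytic subunit, had a median of 23.4 CPM in young lean (range 9.31 to 29.5), 30 in young obese (range 23.6 to 44.2), 35.9 in aged lean (range 19.3 to 91.6) and 39.6 in aged obese libraries (range 18.4 to 108). The lowest value was that of young lean 26, and 5 of 6 aged obese mice lay above every young lean mouse. Gclm (ENSMUSG00000028124), the modifier subunit, had medians of 41.2, 54.5, 56.3 and 56.3 CPM in the same order of groups, and its groups overlapped over most of their range. Its reads may be shared with the overlapping gene Gm17494 and the pseudogene Gm6061.

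Txnrd1 (ENSMUSG00000020250), the cytosolic thioredoxin reductase, had a median of 139 CPM in young lean (range 74.1 to 241), 175 in young obese (range 146 to 383), 242 in aged lean (range 121 to 715) and 276 in aged obese libraries (range 142 to 639). All 6 aged obese mice lay above the young lean median, and 3 lay above every young lean mouse. The span of Eid3 overlaps that of Txnrd1 on the same strand. Whether exons are shared was not checked, and reads that fell in both may have been set aside as ambiguous. Srxn1 (ENSMUSG00000032802), sulfiredoxin, which repairs overoxidised peroxiredoxins, was at 40.6 to 125 CPM in young lean (median 69.7) and 61.7 to 124 in young obese libraries (73.4). In aged lean libraries it was at 59.2, 63.4, 97.6, 126, 132, 132, 144 and 829.5 CPM. In aged obese libraries it was at 67.8, 73.8, 88.5, 134, 873 and 988 CPM. Without the 3 libraries that stood apart, 4 of 7 aged lean mice and 1 of 4 aged obese mice were above the highest young lean mouse. Prdx1 (ENSMUSG00000028691), the cytosolic peroxiredoxin that removes hydrogen peroxide, had medians between 421 CPM in young obese and 522.5 in aged lean libraries, with its extremes at 285 CPM in young obese 1 and 729 in young obese 22.

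Gsr (ENSMUSG00000031584), glutathione reductase, had medians of 24.5 CPM in young lean, 29 CPM in young obese and in aged lean, and 36.4 CPM in aged obese libraries. Nqo1 (ENSMUSG00000003849), a quinone reductase, had a median of 20.6 CPM in young lean (range 11.7 to 69.4), 21.8 in young obese (range 10.1 to 53.8), 29.1 in aged lean (range 14.3 to 59.3) and 17.5 in aged obese libraries (range 15.9 to 26.5). All 6 aged obese mice were below the aged lean median of Nqo1, but none was below every aged lean mouse. Sod2 (ENSMUSG00000006818) had the narrowest range of the 10, with medians of 32.8 to 36.6 CPM, and its highest value was 44.8 CPM in aged obese 10.

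Obesity in young mice was compared between 8 lean and 8 obese libraries. None of the 10 genes was called, against 8.83% of all 14438 tested genes (3.46% higher and 5.37% lower). The median log2 difference of the 10 genes was 0.09, against -0.02 over all genes, and 7 were positive. The estimates ran from -0.33 ± 0.34 for Nqo1 to 0.41 ± 0.31 for Gclc, and the smallest adjusted p was 0.280, for Gclm. None of the 10 had an unadjusted p below 0.05, against 28.3% of all genes, and DESeq2 and voom with quality weights also called 0. Gclc, Gclm, Txnrd1, Gsr and Sod2 were each above the lean median in 8 of 8 obese mice, but each overlapped with the lean group. How many of all genes did so was not counted, so nothing about the 10 genes as a set follows.

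Obesity in aged mice was compared between 8 lean and 6 obese libraries, and again none of the 10 genes passed, against 0.222% of all genes. The estimates ran from -0.75 ± 0.38 for Nqo1 (33.3 ± 15.7 CPM in lean, SD, and 19.7 ± 4.59 CPM in obese mice; adjusted p = 0.405) to 0.90 ± 0.56 for Srxn1 (adjusted p = 0.535). The median of the 10 was 0.02, against 0.01 over all genes. None had an unadjusted p below 0.05, against 12.7% of all genes, and DESeq2 and voom with quality weights called 0. The Srxn1 estimate followed the libraries that stood apart. It was 1.78 without aged lean 16 (adjusted p = 0.0406), -1.12 without aged obese 15 and 17 (adjusted p = 0.361) and -0.24 without all 3 (adjusted p = 0.752).

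Age in lean mice was compared between 8 young and 8 aged libraries. None of the 10 genes was called, as was true of 0% of all genes. Srxn1 (1.36 ± 0.54), Txnrd1 (0.88 ± 0.32), Gclc (0.79 ± 0.31) and Gclm (0.41 ± 0.19) had an unadjusted p below 0.05, which 5.35% of all genes had, and each had an adjusted p of 0.850. DESeq2 and voom with quality weights called 0 of the 10. The median of the 10 was 0.18, against -0.02 over all genes. Txnrd1 was above the young median in 7 of 8 aged lean mice, and Gclc, Gclm and Srxn1 in 6 of 8. Without aged lean 16 the estimates were 0.49 for Srxn1, 0.54 for Txnrd1, 0.50 for Gclc and 0.32 for Gclm.

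Age in obese mice, which here includes the longer time on the diet, was compared between 8 young and 6 aged libraries. Srxn1 rose from 78.4 ± 19.2 to 371 ± 436 CPM (SD), a log2 difference of 2.24 ± 0.57 (SE) or 4.73-fold, with an adjusted p of 0.0329 in edgeR's quasi-likelihood test. It was the only 1 of the 10 called, against 3.07% of all genes, 1.87% higher and 1.20% lower, and the median of the 10 was 0.09, against 0.01 over all genes. Of the 6 aged obese mice, 5 were above the young obese median and 3 above every young obese mouse. The call rested on 2 libraries: without aged obese 15 and 17 the difference was 0.21 (adjusted p = 0.919). It was also lost, at a difference of 1.66 (adjusted p = 0.160), without aged obese 15 alone and at 1.78 (adjusted p = 0.0998) without aged obese 17 alone. Leaving out young obese 2, 18, 19, 20, 21 or 23 moved the difference to between 2.21 and 2.25 and the adjusted p to between 0.0506 and 0.0605. Of the 10 genes, 4 had an unadjusted p below 0.05, against 18.9% of all genes. The estimates for Gclc (0.89 ± 0.33, adjusted p = 0.123), Txnrd1 (0.83 ± 0.34, adjusted p = 0.178) and Keap1 (-0.30 ± 0.12, adjusted p = 0.151) were among these but were not called. Without aged obese 15 and 17 they were 0.09 for Gclc (adjusted p = 0.952), 0.17 for Txnrd1 (adjusted p = 0.907) and -0.14 for Keap1 (adjusted p = 0.680). Keap1 was below every young obese mouse in 5 of 6 aged obese mice, and in 3 of 4 without these libraries.

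The comparison of 6 aged obese with 8 young lean libraries joins both factors and shares its samples with the comparisons above. Gclc rose from 23.2 ± 6.61 to 57.4 ± 38.7 CPM (log2 1.30 ± 0.33, adjusted p = 0.0148). Txnrd1 rose from 157 ± 55.7 to 356.5 ± 211 CPM (log2 1.19 ± 0.35, adjusted p = 0.0281). Srxn1 rose from 77.0 ± 27.4 to 371 ± 436 CPM (log2 2.27 ± 0.57, adjusted p = 0.0154). These 3 of 10 compare with 10.3% of all genes called, 5.62% higher and 4.65% lower. The median of the 10 was 0.22, against -0.01 over all genes. Without aged obese 15 and 17, none of the 10 was called, against 238 of all 14670 genes. The differences were then 0.50 for Gclc (adjusted p = 0.329), 0.53 for Txnrd1 (adjusted p = 0.379) and 0.24 for Srxn1 (adjusted p = 0.797). Leaving out aged obese 15 alone, or aged obese 17 alone, also ended each of the 3 calls, with adjusted p from 0.0552 to 0.109, and leaving out young lean 26 ended that of Txnrd1 (1.08, adjusted p = 0.0571). With only these 14 libraries in the fit, adjusted p was 0.0567 for Gclc, 0.0588 for Txnrd1 and 0.0521 for Srxn1. No gene of the 10 was called in that fit, against 410 of all 13865 genes. Keap1 averaged 29.7 ± 5.79 CPM in the aged obese group, against 37.7 ± 3.83 CPM in young lean mice, a difference of -0.34 ± 0.12 with an adjusted p of 0.0548. It was below the young lean median in 6 of 6 aged obese mice, and the difference was -0.18 (adjusted p = 0.335) without aged obese 15 and 17.

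Whether obesity acted differently at the 2 ages was tested as an interaction. It was called for 0 of the 10 genes, against 0.00693% of all genes. At an unadjusted p below 0.05 there were 0 of the 10, and 1155 of all 14438. DESeq2 and voom with quality weights called 0. Estimates ran from -0.42 ± 0.51 for Nqo1 to 0.88 ± 0.77 for Srxn1, and the smallest adjusted p was 0.702, for Gclm.

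**Figure D3:**
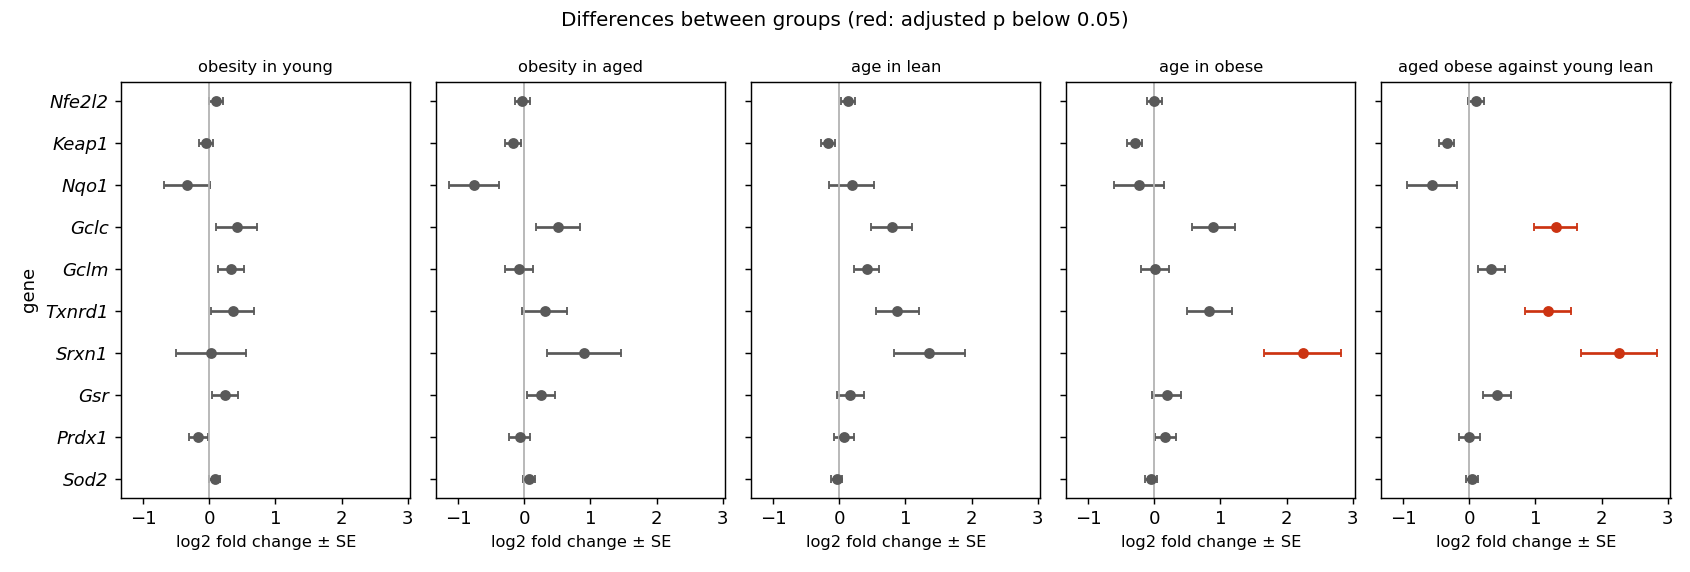
Log2 fold changes (points) with their SE (bars) for each gene in the 5 comparisons of groups, in red where the adjusted p was below 0.05. Red points are Srxn1 for age in obese mice (2.24) and Gclc, Txnrd1 and Srxn1 for aged obese against young lean mice (1.30, 1.19 and 2.27).

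How the genes varied from mouse to mouse within groups was examined pair by pair. Log2 CPM minus the group mean was correlated for all 45 pairs, with p from 100000 permutations within groups adjusted over the 45 pairs. Over all 30 libraries, 27 pairs were positively correlated at an adjusted p below 0.05 and 2 negatively, with a median r of 0.465. There r was at or above 0.365, the smallest positive r called, for 29 pairs and 22.3% of all pairs of genes averaging 4 CPM or more. Gclc with Txnrd1 was closest (r = 0.931, permutation, adjusted p = 5.62e-05), and Nqo1 with Srxn1 gave 0.395 (adjusted p = 0.00729). The libraries that stood apart were then left out, a choice made after seeing the data. Over the remaining 27 libraries, 27 pairs were positively correlated at an adjusted p below 0.05 and 0 negatively. Correlation within groups was common among other genes too: r was at or above 0.444, the smallest r called, for 27 of the 45 pairs and for 18.4% of the 50616891 pairs of the 10062 genes averaging 4 CPM or more. The median r was 0.534 over the 45 pairs and 0 over all pairs of genes. These shares are a description, with no test between them. The closest pair over these 27 libraries was Gclm with Srxn1, with Pearson's r = 0.901 and Spearman's rho = 0.891 (permutation p = 1e-05 and adjusted p = 9e-05 for both). Its r was 0.899 without the 2 libraries farthest from the median of Gclm. Gclc with Txnrd1 gave r = 0.868 and rho = 0.891, and 0.836 without 2 libraries, and Txnrd1 with Gsr gave r = 0.840 and rho = 0.774, and 0.805 without 2 libraries (permutation p = 1e-05 and adjusted p = 9e-05 for each). A permutation p of 1e-05 is the smallest that these draws can give. Nqo1 was correlated with Srxn1 over the 27 libraries (r = 0.558, permutation, adjusted p = 0.0127, rho = 0.509, and r = 0.448 without 2 libraries), and more closely with Gsr (r = 0.787, rho = 0.774, permutation p = 1e-05, adjusted p = 9e-05, and 0.720 without 2 libraries).

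Keap1 shows how far such relations rest on single libraries. Over all 30 libraries its r was -0.638 with Srxn1 (permutation, adjusted p = 0.0171) and -0.558 with Gclc (adjusted p = 0.0235), the negative pairs called of the 45. Their rho was -0.285 (adjusted p = 0.255) and -0.378 (adjusted p = 0.107), and r fell to -0.302 and -0.270 without the 2 farthest libraries. Over the 27 libraries r was 0.239 with Srxn1 (adjusted p = 0.370; rho 0.299, adjusted p = 0.241) and 0.055 with Gclc (adjusted p = 0.851; rho 0.059, adjusted p = 0.821). No negative relation was called over these 27 libraries. The libraries left out had been picked by these same genes, with the highest Srxn1 and Gclc and the lowest Keap1. Weaker negative relations therefore follow in part from that choice, and p over the 27 libraries was not corrected for it. Positive relations of Keap1 were called there with Nqo1 (r = 0.542, permutation, adjusted p = 0.0193), Gsr (0.536, adjusted p = 0.0179) and Gclm (0.523, adjusted p = 0.0343). Over all 30 libraries these r were 0.164, -0.027 and -0.062, and none was called.

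**Figure D4:**
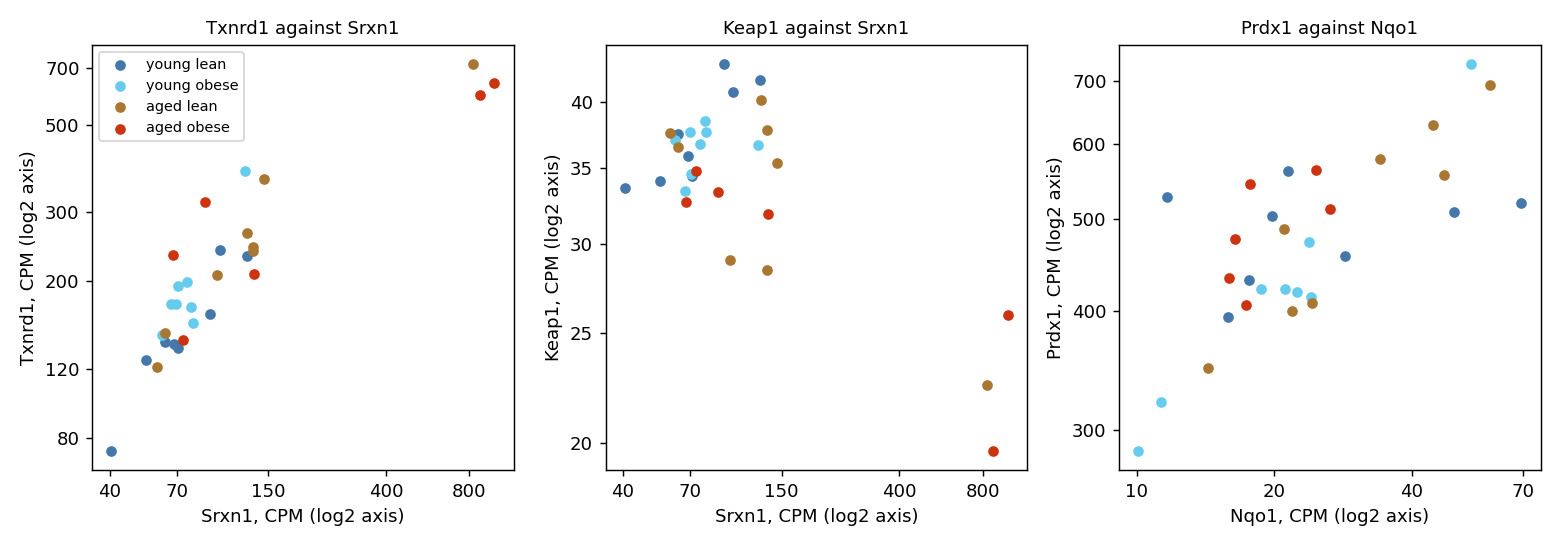
Levels of pairs of genes, 1 point per library, both axes in CPM on a log2 scale and colours by group. The 3 libraries with Srxn1 at 829.5 to 987.6 CPM lie apart in the plots of Txnrd1 and of Keap1, whereas Prdx1 and Nqo1 vary across all 4 groups.

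For the regulator, for Nqo1 and for Sod2, the genes with the most similar pattern over the 30 libraries were sought among 10061 genes averaging 4 CPM or more, by r of group-centred log2 CPM and with no test. They were Adam9 (0.831), Reep3 (0.822) and Spred1 (0.815) for Nfe2l2. For Nqo1 they were Rbm3 (0.860), Pgd (0.844) and Slco2a1 (0.828), of which Pgd encodes an NADPH-forming enzyme of the pentose phosphate pathway. For Sod2 they were Gatad1 (0.837), Rala (0.825) and Timm17a (0.807). Srxn1 was added after its values were seen, and its nearest genes were Clcf1 (0.942), Ppp1r2 (0.939) and Smad3 (0.934). Over the 27 libraries r was 0.744 for Clcf1, 0.792 for Ppp1r2 and 0.559 for Smad3. Clcf1, a cytokine gene, was at 434, 458 and 457 CPM in aged lean 16, aged obese 15 and aged obese 17, and at no more than 140.3 CPM elsewhere.

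Other genes of the pathway were taken from a list of 49 NRF2 targets and regulators, of which 48 were tested. With obesity in young mice 1 of the 48 rose and 5 fell, against 3.46% of all genes called higher and 5.37% called lower. The median log2 difference was -0.14, against -0.02 over all genes. Abcc1, an exporter of glutathione conjugates, rose from 186 ± 44.2 to 278 ± 19.2 CPM (log2 0.58 ± 0.14, adjusted p = 0.0198), with 8 of 8 obese mice above every lean mouse. Ephx1, microsomal epoxide hydrolase, fell from 209.0 ± 42.0 to 143 ± 14.5 CPM (-0.55 ± 0.11, adjusted p = 0.0123). Cbr1, a carbonyl reductase, fell by 0.44 on the log2 scale (adjusted p = 0.0179), with 8 of 8 obese mice below every lean mouse, and Aox1, an aldehyde oxidase, fell by 0.80 (adjusted p = 0.0231). Blvrb, which fell by 0.57, and Gsta3, which fell by 2.0033, are named after their values were seen, and Gsta3 averaged only 0.416 and 0.101 CPM in lean and obese mice. The counts for this list, like those over all genes, depended on which libraries were used. Without young obese 1 and 2, 1 of the 48 was called, against 143 of all 14403 genes. Abcc1 was then at 0.59 (adjusted p = 0.0545), while Ephx1 was still called. With an offset for length and GC content Abcc1 was at 0.38 (adjusted p = 0.0703). Cbr1 was not called without young lean 26 (-0.39, adjusted p = 0.0501), nor Aox1 without young lean 7 (-0.63, adjusted p = 0.0630).

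The genes of this list called in aged obese mice were Hmox1 and Osgin1. Hmox1, heme oxygenase, which degrades heme and is also repressed by BACH1, averaged 506 ± 649 CPM in the aged obese group, against 176 ± 43.7 CPM in young lean mice (log2 1.53 ± 0.42, adjusted p = 0.0214). Aged obese 15 held 1802 CPM and aged obese 17 held 500.1 CPM, while the remaining 4 mice of that group had 122 to 247.5 CPM. The difference was 0.06 (adjusted p = 0.920) without these 2 libraries and 0.49 (adjusted p = 0.324) without aged obese 15 alone. Aged lean 16, at 628.5 CPM, had the highest Hmox1 among lean mice. Osgin1, an oxidative stress inducible growth inhibitor, rose for aged obese against young lean mice (0.94 ± 0.29, adjusted p = 0.0345) and with age in obese mice (1.17 ± 0.29, adjusted p = 0.0273). Without aged obese 15 and 17 these differences were 0.59 (adjusted p = 0.240) and 0.82 (adjusted p = 0.229). The highest Osgin1 was 21.1 CPM in aged obese 15, followed by 13.8 CPM in aged obese 14. The first call was lost without young lean 23, 24, 25 or 26 or aged obese 14 or 15 (0.60 to 0.90, adjusted p = 0.0573 to 0.171), and the second without young obese 18, 19 or 23 or aged obese 14 or 15 (0.83 to 1.18, adjusted p = 0.0503 to 0.139). With only the compared groups in the fit, the calls for aged obese against young lean mice were lost for Hmox1 (adjusted p = 0.0923) and Osgin1 (adjusted p = 0.108), and so was that of Osgin1 for age in obese mice (adjusted p = 0.0542). Voom gave adjusted p = 0.106 for Hmox1 and 0.0592 for Osgin1 in the former comparison. In total 2 of the 48 rose and 0 fell for aged obese against young lean mice, where 10.3% of all genes were called, and 1 rose and 0 fell with age in obese mice, where 3.07% were. For obesity in aged mice, age in lean mice and the interaction 0 of the 48 were called, with 3, 2 and 3 at an unadjusted p below 0.05. Of all genes 12.7%, 5.35% and 1155 of 14438 were below that limit in these comparisons.

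**Figure D5:**
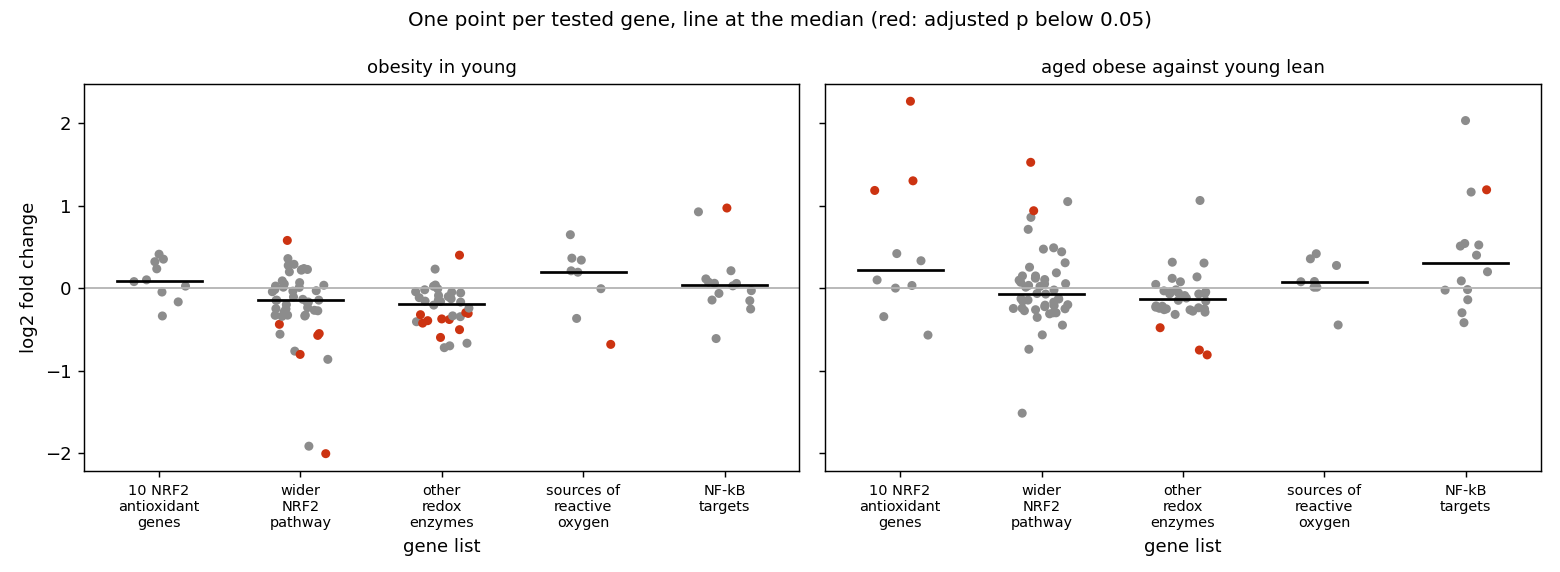
Log2 fold changes of the tested genes of each list (1 point per gene, line at the median, red where the adjusted p was below 0.05) for obesity in young mice and for aged obese against young lean mice. With obesity in young mice the red points lie mostly among other redox enzymes, where 1 gene rose and 9 fell, and for aged obese mice the highest red point is Srxn1 at 2.27.

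A list of 34 other redox enzymes contained 1 gene that rose and 9 that fell with obesity in young mice, against 3.46% of all genes called higher and 5.37% called lower. Its median was -0.18, against -0.02 over all genes. Gpx4, the glutathione peroxidase that acts on lipid peroxides, fell from 352 ± 77.1 to 249 ± 35.6 CPM (-0.50 ± 0.12, adjusted p = 0.0201). Ccs, the copper chaperone of SOD1, fell by 0.39, Selenow by 0.59 and Prdx2, a cytosolic peroxiredoxin, by 0.42 (adjusted p = 0.0201, 0.0223 and 0.0224). Each of these 4 calls was lost without young lean 26 (adjusted p = 0.0564 to 0.0660), those of Gpx4, Selenow and Prdx2 also without young lean 7 (0.0522 to 0.0567), those of Gpx4 and Prdx2 without young lean 27 (0.05003 and 0.0520), and that of Prdx2 without young obese 1 (0.0511). The count was 1 in place of 10 without young obese 1 and 2, 4 with an offset for length and GC content, and 2 with no filter on low counts. Over all genes 1275 of 14438 were called in the reported test and 143 of 14403 without young obese 1 and 2. With no filter 371 of 25811 genes were called, and with the offset 570 of 14297. That offset gave -0.27 for Gpx4 (adjusted p = 0.0774), -0.19 for Ccs (adjusted p = 0.0973) and -0.24 for Selenow (adjusted p = 0.182), while Prdx2, at -0.38, was still called. In aged obese against young lean mice 0 rose and 3 fell, against 5.62% and 4.65% of all genes. They were Sesn2, a stress-inducible sestrin (73.0 ± 6.98 to 43.5 ± 15.99 CPM, -0.75 ± 0.17, adjusted p = 0.0103), Gpx4 (-0.48 ± 0.13, adjusted p = 0.0237) and Msrb2, a mitochondrial methionine sulfoxide reductase (-0.81 ± 0.24, adjusted p = 0.0337). The calls of Gpx4 and Msrb2 here were each lost without any 1 of 6 libraries. These were young lean 7 and 26 and aged obese 15 and 17 for both, aged obese 10 and 12 for Gpx4, and young lean 27 and aged obese 14 for Msrb2, with adjusted p from 0.0502 to 0.0894. That of Msrb2 was also lost with the offset (-0.61, adjusted p = 0.0736), and both with only the compared groups in the fit (adjusted p = 0.104 and 0.0620). The Gpx4 call was lost with voom as well (adjusted p = 0.0959), and the Sesn2 call without aged obese 10 and 12 (-0.57, adjusted p = 0.0525). Sesn2 also fell with age in obese mice (-0.73 ± 0.17, adjusted p = 0.0244; -0.69 and 0.0582 without aged obese 17, and 0.0684 with only the compared groups), and was then the 1 gene of the list called. No gene of this list was called for obesity in aged mice, age in lean mice or the interaction, where 7, 3 and 8 of the 34 had an unadjusted p below 0.05. Of all genes 12.7%, 5.35% and 1155 of 14438 had one in these comparisons.

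Of 13 genes for sources of reactive oxygen, 8 were tested, and 1 was called in the 6 comparisons, with obesity in young mice, where 8.83% of all genes were. Cyba, the p22phox subunit of NADPH oxidases, fell with obesity in young mice from 122 ± 40.4 to 76.4 ± 4.73 CPM (-0.68 ± 0.14, adjusted p = 0.0123; -0.35 and 0.0246 with an offset for length and GC content), with 8 of 8 obese mice below every lean mouse. Of 16 NF-kB targets, a pathway that also acts on Sod2, 14 were tested and Icam1, an adhesion molecule, was the gene called. It passed in 3 comparisons, in which 8.83%, 0.222% and 10.3% of all genes were called. Icam1 rose with obesity in young mice (4.58 ± 1.32 to 9.01 ± 1.83 CPM, 0.97 ± 0.23, adjusted p = 0.0182), with 8 of 8 obese mice above every lean mouse, and was at 0.97 (adjusted p = 0.0547) without young obese 1 and 2. It also rose with obesity in aged mice (1.35 ± 0.25, adjusted p = 0.0113) and for aged obese against young lean mice (1.19 ± 0.25, adjusted p = 0.00668). The aged call was lost without aged obese 10 (1.13, adjusted p = 0.0510) or aged obese 10 and 12 (0.94, adjusted p = 0.105), with only the compared groups in the fit (adjusted p = 0.180) and with voom (adjusted p = 0.0546). Sod2 did not pass in any of these comparisons, with log2 differences between -0.05 and 0.08.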

How the data were processed

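RNA of 30 libraries was analysed from the deposited table of raw counts per Ensembl gene. Per the submitters' processing notes, the authors used STAR, HTSeq 0.7.0 and DESeq2 1.12.4; the build, annotation and strand setting of the counting are not given in the sources used here. The 5 lines that name no gene were left out: 3.94% to 8.75% of a library lay outside genes, and 2.69% to 3.41% was ambiguous. Symbols were matched for 36639 of 38561 genes, and lengths and overlapping genes come from GENCODE M21.

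Groups and mouse numbers came from the sample titles. In edgeR 4.0.16 (R 4.3.3), filterByExpr by group left 14438 genes, libraries were scaled by TMM, and 1 quasi-likelihood fit of the 4 group means took in all 30 libraries. The tests are two-sided, and an adjusted p (Benjamini-Hochberg over all tested genes) below 0.05 was called. The SE is the absolute log2 fold change divided by the square root of F. Log2 CPM used a prior count of 2. No batch is named in the labels. Alternatives used DESeq2 1.42.0, limma 3.58.1 (voom), other filters and offsets, and fits without single libraries. On simulated counts of 14438 genes, 86% of 2-fold and 36% of 1.5-fold changes were recovered for aged obese against young lean, and 85% and 52% for obesity in young mice. The simulated libraries were drawn independently, with 1 mean per gene, and only genes averaging 4 CPM or more were changed. These shares therefore need not hold for unequally alike libraries or for genes that vary as widely as Srxn1. Libraries with the same mouse number in lean and obese groups come from different mice and were not paired.

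All 10 genes are named in each comparison, and of every other list up to 4 called genes with the smallest adjusted p; a further gene is marked as named after its values were seen. The genes, lists and tests were chosen with earlier results of these data known.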

Additional observations from a re-analysis of the deposited data

Results flagged for a closer look

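In 6 of 40 sets of a gene in a group, the highest or lowest library lay apart from the others by Dixon's criterion on log2 CPM, which chance meets in about 1 in 20 sets. Young obese 22 was high for Txnrd1 (383.0 CPM, others 146 to 199.6), Srxn1 (123.5 CPM, others 61.7 to 79.9) and Gsr (48.07 CPM, others 25.3 to 34.0). Young lean 26, the library with the fewest counts in genes, was low for Gclc, with 9.307 CPM against 20.1 to 29.5 CPM in the other 7. Aged lean 16 was high for Srxn1, with 829.5 CPM against 59.2 to 144 CPM. Aged obese 10 was high for Sod2, with 44.83 CPM against 32.6 to 36.0 CPM. The high Srxn1 of aged obese 15 and 17 did not meet the criterion, since each is the other's nearest neighbour.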

How the results depend on the processing

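The count of 10 genes called for age in obese mice was 1 in the reported test, where 443 of all 14438 genes were called. It was 0 with only the compared groups in the fit (181 of all 13766) and 2 with voom and quality weights (2870 of all 14438). Without aged obese 10 and 12 it was 3 (2679 of all 14648). Without aged obese 15 and 17 it was 0 (57 of all 14670), as without aged lean 16 in addition (89 of all 14640). Leaving out 1 library gave 0 to 2. For aged obese against young lean mice the count was 3 in the reported test, where 1483 of all 14438 genes were called. It was 0 with only the compared groups (410 of all 13865) and 0 with voom (695 of all 14438). Without aged obese 15 and 17 it was 0 (238 of all 14670), as without aged lean 16 in addition (532 of all 14640). Leaving out 1 library gave 0 to 4. For obesity in aged mice leaving out 1 library gave 0 to 1. The alternatives without aged obese 15 and 17 were chosen after seeing the data. Srxn1 for age in obese mice was also not called without young obese 2, 18, 19, 20, 21 or 23 (adjusted p = 0.0506 to 0.0605), and Txnrd1 for aged obese against young lean mice without young lean 26 (1.08, adjusted p = 0.0571). Keap1 in that comparison passed without aged obese 16 (-0.39, adjusted p = 0.0282) and with an offset for length and GC content (-0.39, adjusted p = 0.0344).

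Of 60 log2 differences of the 10 genes, 30 were smaller than their SE, and a change of sign of these is not counted as a reversal; 54 such changes occurred across the alternatives and 69 when a library was left out. Of 550 alternative values, 15 lost the call, 5 gained it and 9 reversed; the other 521 kept their side of the threshold, and include those 54. Without aged obese 15 and 17, the obesity effect in aged mice was -0.29 for Gclc and -1.12 for Srxn1, and the Srxn1 interaction was -1.15; without aged lean 16 as well, the Srxn1 values were -0.236 and -0.273. Beyond the libraries left out, the cause was not tested. With the mouse number as a replicate block, on the libraries whose numbers occur in both groups, obesity in young mice was -0.0836 for Txnrd1 and -0.22 for Gsr, and with no replicate block -0.135 and -0.245. The block called 0 of the 10 genes in young and 0 in aged mice. These fits held only mouse numbers 1 and 23 in young and 12, 15, 16 and 17 in aged mice. They called 0 of all 13820 and 0 of all 13864 genes, with or without the block, so nothing about the 10 genes follows. Same-numbered libraries correlated at 0.0823 and 0.2148 in young mice, where differently numbered ones gave -0.2128 and -0.3974. In aged mice the former ran from -0.5175 to 0.3897 and the latter from -0.5027 to 0.7594. So few values cannot decide whether a shared number matters, and the libraries were left unpaired because they come from different mice.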
